A study of Mus musculus with 9 samples.

Results

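The genes described here are 45 mouse genes that carry pyruvate and fatty acids into the mitochondrion, oxidize them to acetyl-CoA and run the tricarboxylic acid (TCA) cycle. They were picked by name, as the rows of the deposited expression table whose symbol is on the list, and all 45 were found among the 53715 gene IDs of that table. Expression was measured by RNA-seq in primary myoblasts, precursors of muscle fibres, at passage 1 from mice of the strain C57BL/10ScSn-Dmdmdx/J. This is the mdx strain, which lacks full-length dystrophin and is used as a model of Duchenne muscular dystrophy, and both groups carry the mutation. The cells of 3 libraries were given 0.2 mM glycine and those of 6 libraries 0.8 mM glycine, and the comparison asks how RNA levels differ between these glycine concentrations. The libraries of each concentration are numbered as 1 series of their own, so a difference between the series and a difference between the concentrations cannot be told apart. The length of the treatment, the number of animals and whether libraries came from separate cultures are not given in the labels, so p-values measure only the spread between these libraries, which may be technical.

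Pyruvate made by glycolysis crosses the inner mitochondrial membrane through the carrier formed by MPC1 and MPC2 and is turned into acetyl-CoA by the pyruvate dehydrogenase (PDH) complex, which PDH kinases switch off by phosphorylation. Long-chain fatty acids enter as carnitine esters and are shortened by rounds of beta-oxidation, which yield acetyl-CoA and pass electrons to the electron transfer flavoprotein. The TCA cycle oxidizes the acetyl-CoA from both routes and supplies NADH and carbon skeletons, and muscle raises its capacity for all of these steps as precursors become contractile fibres.

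The values are TPM, a measure of transcript abundance, which divides reads by transcript length and scales each library to the same total, so values can be compared between genes, while between libraries they also depend on the share that abundant RNAs take. The depth of the libraries is unknown. Means are given ± SD over 3 libraries at 0.2 mM and 6 libraries at 0.8 mM. The myoblast markers Des, an intermediate filament of muscle, and Myod1, a myogenic transcription factor, stood at 104 ± 12.8 and 35.7 ± 4.55 TPM at 0.2 mM and at 356 ± 30.5 and 69.3 ± 5.70 TPM at 0.8 mM, while Pax7, a satellite cell factor, was low, at 0.712 ± 0.176 and 1.20 ± 0.312 TPM. Some markers of other cells were also high. The fibroblast gene Dcn stood at 1878 ± 184 and 1689 ± 209 TPM. The leukocyte gene Fcer1g stood at 949 ± 39.2 and 888 ± 36.3 TPM. Neither gene is among those counted below as risen or fallen. Among those that are, the fibroblast gene Ly6a rose from 313 ± 19.6 to 901 ± 37.1 TPM. The leukocyte gene Lyz2 rose from 588 ± 30.6 to 1013 ± 153 TPM, and Cd68 fell from 182 ± 13.6 to 57.6 ± 2.38 TPM. Other markers were low, such as the leukocyte gene Ptprc at 4.30 ± 2.38 and 3.61 ± 1.62 TPM. The fibroblast gene Pdgfra was at 4.14 ± 1.04 and 7.55 ± 1.16 TPM. Several marker lists moved with the concentration, and over all genes tested 16.7% rose and 9.81% fell. The summed level of 11 muscle differentiation genes ran from 2089 to 2544 TPM at 0.2 mM and from 6849 to 8304 TPM at 0.8 mM, and all 11 rose. The 7 myoblast markers summed to 169 to 219 and 443 to 538 TPM with 5 that rose, the 10 macrophage and leukocyte markers to 1866 to 2036 and 2054 to 2508 TPM with 4 that rose and 1, Cd68, that fell, and the 8 fibroblast markers to 2305 to 2686 and 2711 to 3283 TPM with 6 that rose. The 6 endothelial markers summed to 4.33 to 4.79 and 9.33 to 12.8 TPM with 3 that rose, and the 6 adipocyte markers to 12.8 to 14.7 and 22.3 to 34.7 TPM, nearly all from Fabp4, which rose, with Lep at 0 in every library. Ribosomal protein genes made up 22.0% ± 0.590 and 19.6% ± 0.401 of TPM (exact permutation p = 0.0238, two-sided, the smallest that 3 against 6 libraries allow). Genes at 1 TPM or more numbered 8979 to 9243 at 0.2 mM and 9321 to 9457 at 0.8 mM (exact permutation p = 0.0238). Ribosomal RNA genes made up 21.7% ± 1.65 and 19.7% ± 1.66 of TPM, with overlap (exact permutation p = 0.167). Mitochondrially encoded genes made up 3.33% ± 0.333 and 3.38% ± 0.159 (exact permutation p = 0.762). The part of these shifts in the results on the metabolic genes was not tested, and in bulk RNA fewer cells of a type and less RNA per cell cannot be told apart.

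The abundance of the 45 genes spanned a wide range. Etfb, Mdh2 and Mpc1 were the most abundant, with group means from 76.4 to 129.6 TPM, and Ppargc1a, the transcriptional coactivator PGC-1alpha, was at 0 to 0.113 TPM in every library. With genes kept where at least 3 libraries reached 1 TPM, 41 of the 45 were tested, and Pcx, Pdk4, Cpt1b and Ppargc1a were under that level. A gene can meet this level through the libraries at 0.8 mM alone, as Esrra did, and the rising markers Itgam, Pecam1 and Cdh5. Differences are log2 fold changes, 0.8 mM minus 0.2 mM, on the log2(TPM + 1) scale, which understates the change of genes with low TPM, and a gene passed at an adjusted p under 0.05 in limma over all 10049 genes tested.

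**Figure D1:**
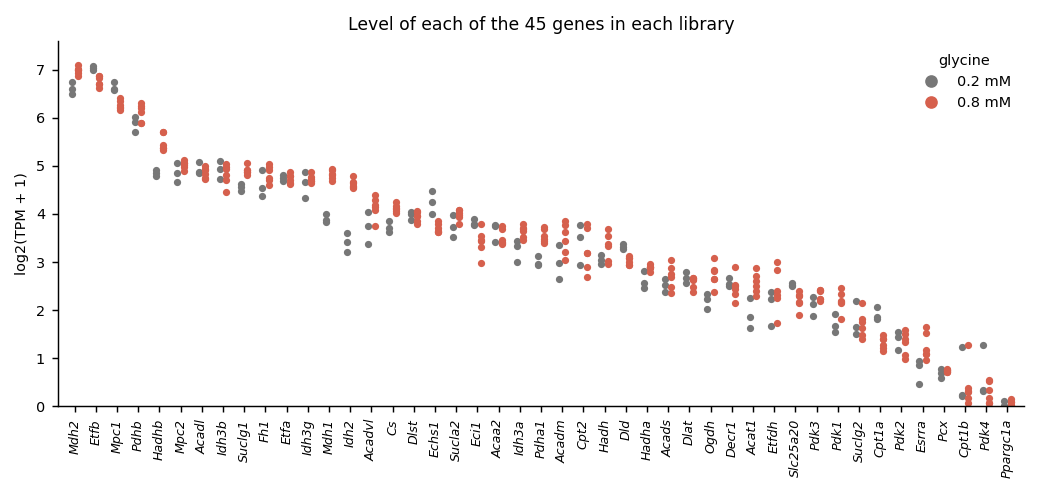
Level of each of the 45 genes in each library as log2(TPM + 1), with genes ordered by level, grey points for the 3 libraries at 0.2 mM glycine and red points for the 6 libraries at 0.8 mM. Idh2, Mdh1 and Hadhb show a clear gap between the groups, with Idh2 at 8.25 to 11.1 TPM at 0.2 mM and 22.3 to 26.5 TPM at 0.8 mM, and 4 genes at the right lie under the level needed for the test.

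At 0.8 mM glycine 11 of the 41 tested genes rose and 5 fell, while 25 did not pass. Over all genes tested, 26.6% passed, 16.7% upward and 9.81% downward, and the corresponding shares of the 41 were 39.0%, 26.8% and 12.2%, so the share that fell was near the background. The values of the 2 groups did not overlap for 17 of the 41, of which 11 were higher and 6 lower at 0.8 mM, against a background of 28.2% in either direction, 17.6% higher and 10.6% lower. The median log2 fold change was 0.22 over the 41 and 0.06 over all genes tested. With median-ratio scaling or quantile normalization of the libraries these medians became 0.13 or 0.12 and -0.00 or -0.02, and upward calls among all genes that passed went from 63.1% to 52.6% (1414 up, 1274 down) or 49.8% (1324 up, 1335 down), while 9 of the 41 rose and 7 fell under both. Without replicate 2 at 0.2 mM 7 of the 41 rose, and without replicate 1 at 0.2 mM 3 fell. By role, the TCA cycle held 7 of the 11 rises and none of the falls, so 53.8% of its genes rose against 16.7% over all genes tested. Its largest differences were those of Idh2, the NADP-dependent isocitrate dehydrogenase, and Mdh1, a cytosolic enzyme. The calls of Idh3a and Ogdh were lost when certain single libraries were left out. The falls were spread over pyruvate entry, the carnitine shuttle, beta-oxidation and electron transfer.

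**Figure D2:**
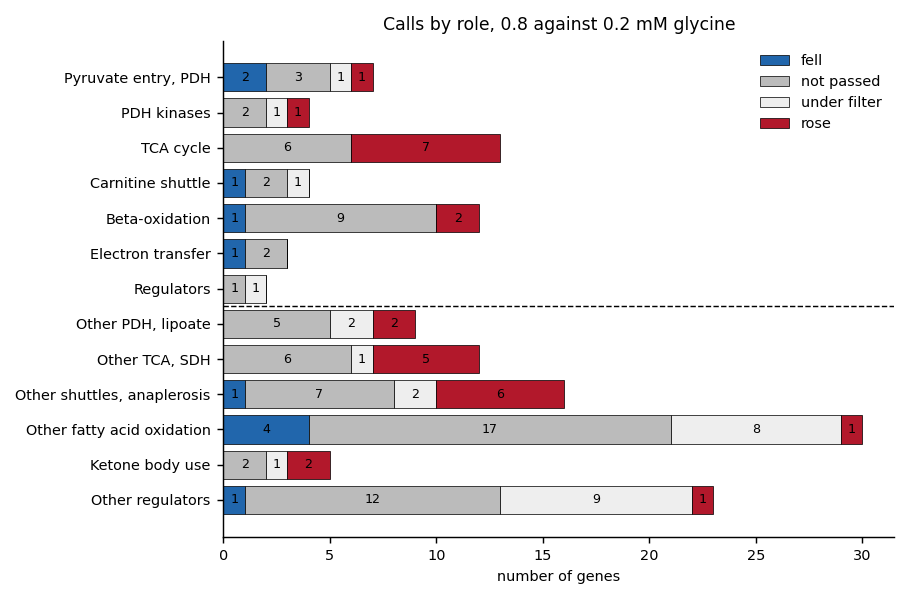
Number of genes in each role that rose, fell, did not pass the test or lay under the level needed for it, with the lists of other pathway genes below the dashed line. Of the 13 TCA cycle genes 7 rose and none fell, and of the 12 beta-oxidation genes 2 rose and 1 fell. Over all genes tested 16.7% rose and 9.81% fell.

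**Figure D3:**
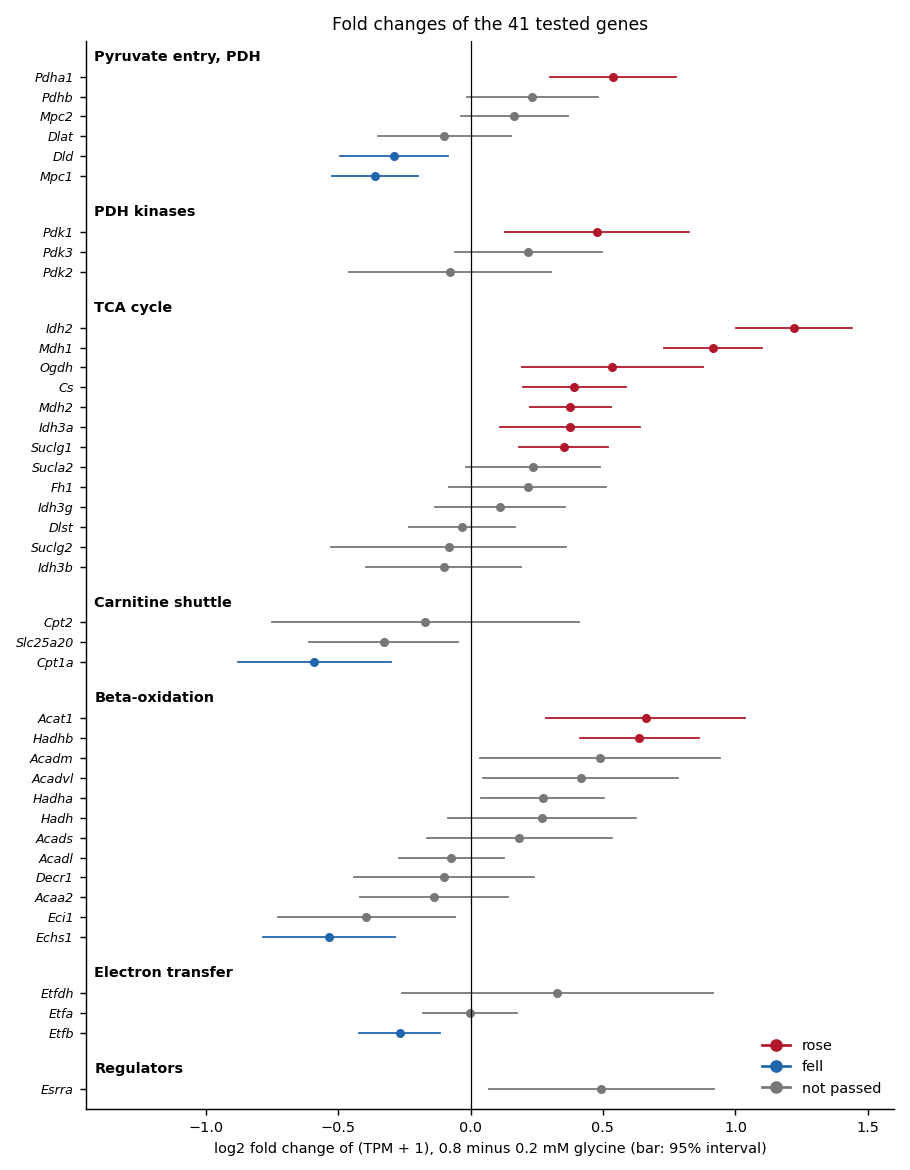
Log2 fold change of each tested gene at 0.8 against 0.2 mM glycine on the log2(TPM + 1) scale, grouped by role, with bars for the 95% interval and colour for the call. The estimates run from -0.59 for Cpt1a to 1.22 for Idh2, and the median of all genes tested is 0.06.

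In pyruvate entry and the PDH complex, Pdha1 rose, Mpc1 and Dld fell, and Mpc2, Pdhb and Dlat did not pass. Mpc1, 1 of the 2 subunits of the mitochondrial pyruvate carrier (chr17:8282904-8297661, GRCm38), read 95.3, 106 and 93.8 TPM at 0.2 mM and ran from 70.3 to 84.4 with a median of 75.2 TPM at 0.8 mM. Every library at 0.8 mM was below all 3 at 0.2 mM, and the log2 fold change was -0.36 ± 0.07 (SE, adjusted p = 0.0039). Its partner Mpc2 was at 28.1 ± 3.88 and 31.5 ± 1.65 TPM, with a log2 difference of 0.16 (95% interval -0.04 to 0.37, adjusted p = 0.22). The ratio of Mpc1 to Mpc2 was 3.42, 3.30 and 3.84 at 0.2 mM and 2.16 to 2.61 at 0.8 mM, with no overlap. Pdha1, the catalytic E1 alpha subunit that the kinases phosphorylate (chrX:160122209-160138413), read 6.79, 6.66 and 7.77 TPM at 0.2 mM and 9.49 to 12.3 with a median of 10.4 TPM at 0.8 mM. The groups were separate, with the higher values at 0.8 mM, and the log2 fold change was 0.54 ± 0.11 (adjusted p = 0.00358). Pdhb, its E1 beta partner, was several times more abundant, at 57.9 ± 6.61 and 68.3 ± 8.23 TPM, and differed by 0.23 on the log2 scale (95% interval -0.01 to 0.48, adjusted p = 0.154). Dlat, the E2 acetyltransferase core, was at 5.43 ± 0.509 and 5.01 ± 0.495 TPM (log2 difference -0.10, 95% interval -0.35 to 0.15, adjusted p = 0.577). Dld, the E3 dehydrogenase shared with the 2-oxoglutarate dehydrogenase complex and the glycine cleavage system (chr12:31331277-31351453), read 8.95, 9.44 and 8.64 TPM at 0.2 mM and 6.68 to 7.79 with a median of 7.24 TPM at 0.8 mM. It was lower in every library at 0.8 mM, with a log2 fold change of -0.29 ± 0.09 (adjusted p = 0.0398). The Dld call was lost without any 1 of the 3 libraries at 0.2 mM or of replicates 1 to 5 at 0.8 mM, with adjusted p between 0.0509 and 0.137. Pcx, pyruvate carboxylase, which makes oxaloacetate from pyruvate, read 0.708, 0.608 and 0.499 TPM at 0.2 mM and 0.650 to 0.718 TPM at 0.8 mM, under the level needed for the test.

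Promoter stretches of Mpc1 and Pdha1 are shown because both were among the 6 genes of smallest p. They lie upstream of RefSeq starts, come from RefSeq on GRCm38.p6, run 5′ to 3′ on the strand of the gene, leave out bases in GENCODE exons, and carry the box CCAAT, or ATTGG on the other strand, in capitals. The Mpc1 stretch lies at chr17:8283537-8283761 on the plus strand, downstream of the outermost GENCODE start of the gene, and the Pdha1 stretch at chrX:160138431-160138680 on the minus strand.
Mpc1: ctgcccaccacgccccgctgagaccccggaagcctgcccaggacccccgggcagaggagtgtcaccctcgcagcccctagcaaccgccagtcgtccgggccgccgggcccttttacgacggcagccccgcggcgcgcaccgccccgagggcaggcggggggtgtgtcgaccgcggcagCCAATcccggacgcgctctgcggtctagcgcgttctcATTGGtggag
Pdha1: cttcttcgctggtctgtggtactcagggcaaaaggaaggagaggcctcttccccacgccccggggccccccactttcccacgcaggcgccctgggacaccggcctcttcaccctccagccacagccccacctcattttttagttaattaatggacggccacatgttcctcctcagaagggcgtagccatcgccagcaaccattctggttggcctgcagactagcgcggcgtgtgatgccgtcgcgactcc
The Mpc1 stretch holds the box on both strands, and the Pdha1 stretch holds neither form. RefSeq gives Mpc1 2 windows, and the other, which is not shown, holds none of the motifs searched.

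The PDH kinases phosphorylate the E1 alpha subunit and so restrain pyruvate oxidation. Pdk1, the kinase known as a hypoxia-inducible gene (chr2:71873224-71903858), rose, with 2.19, 1.92 and 2.78 TPM at 0.2 mM and 2.54 to 4.53 with a median of 3.53 TPM at 0.8 mM. The ranges overlapped, since the lowest library at 0.8 mM was below the highest at 0.2 mM, and the log2 fold change was 0.48 ± 0.16 (adjusted p = 0.0452). The call was lost without replicate 1 or 2 at 0.2 mM or any 1 of replicates 1 to 5 at 0.8 mM, with adjusted p from 0.0672 to 0.168, and also with no filter, with either rescaling of the libraries and without ribosomal RNA genes (0.0625 to 0.0896). Pdk2 was at 1.64 ± 0.343 and 1.51 ± 0.407 TPM (log2 difference -0.08, 95% interval -0.46 to 0.30), and Pdk3 at 3.30 ± 0.603 and 3.98 ± 0.354 TPM (log2 difference 0.22, 95% interval -0.06 to 0.50). Pdk4, the kinase induced by fasting and fatty acids in muscle, read 0.249, 1.43 and 0.273 TPM at 0.2 mM and 0.0479 to 0.456 TPM at 0.8 mM, and 1 library at 0.2 mM stood above the rest. The 4 kinases summed to 7.89 ± 0.815 and 9.33 ± 0.800 TPM with overlapping ranges. Pdk3 made up the largest mean share of that sum in both groups, 41.6 ± 3.43% and 42.8 ± 2.96%, and the share of Pdk1 was 31.1, 24.0 and 32.1% at 0.2 mM and 32.2% to 45.9% at 0.8 mM, with highest and lowest values of the groups that nearly touched.

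In the TCA cycle, Cs, Idh2, Idh3a, Ogdh, Suclg1, Mdh1 and Mdh2 rose, and Idh3b, Idh3g, Dlst, Sucla2, Suclg2 and Fh1 did not pass. Cs, citrate synthase, the entry step of the cycle (chr10:128337734-128362479), read 13.5, 11.3 and 12.2 TPM at 0.2 mM and 15.2 to 17.97 with a median of 16.3 TPM at 0.8 mM. All libraries at 0.8 mM were above those at 0.2 mM, with a log2 fold change of 0.39 ± 0.09 (adjusted p = 0.00698). Idh2, the mitochondrial NADP-dependent isocitrate dehydrogenase (chr7:80094846-80115392), had the largest difference of the 41 genes, from 11.1, 8.25 and 9.65 TPM at 0.2 mM to between 22.3 and 26.5 with a median of 23.4 TPM at 0.8 mM. The lowest library at 0.8 mM was well above the highest at 0.2 mM, and the log2 fold change was 1.22 ± 0.10 (adjusted p = 6.45e-06). The NAD-dependent isocitrate dehydrogenase is a separate enzyme made of 3 kinds of subunit. Its catalytic subunit Idh3a (chr9:54586334-54604661) rose, with 9.89, 9.06 and 7.01 TPM at 0.2 mM and 9.99 to 12.8 with a median of 11.7 TPM at 0.8 mM. The groups came close without overlapping, and the log2 fold change was 0.38 ± 0.12 (adjusted p = 0.0403). The Idh3a call was lost without replicate 2 or 3 at 0.2 mM or replicate 2, 4, 5 or 6 at 0.8 mM, with adjusted p from 0.063 to 0.173, and with no filter, either rescaling, library weights or without ribosomal RNA genes, with adjusted p from 0.0545 to 0.0972. The regulatory subunits Idh3b and Idh3g were at 29.4 ± 3.84 and 23.9 ± 4.50 TPM at 0.2 mM and at 27.5 ± 3.99 and 25.6 ± 1.53 TPM at 0.8 mM, with 95% intervals of the log2 difference of -0.39 to 0.19 and -0.13 to 0.35.

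Of the 2-oxoglutarate dehydrogenase complex, Ogdh, the E1 subunit (chr11:6291633-6356642), rose while Dlst, the E2 subunit, did not pass. Ogdh read 4.04, 3.10 and 3.71 TPM at 0.2 mM and 4.18 to 7.47 with a median of 5.69 TPM at 0.8 mM. The groups did not overlap, and the log2 fold change was 0.54 ± 0.15 (adjusted p = 0.0262), but without replicate 2 or replicate 3 at 0.2 mM the adjusted p was 0.112 or 0.0633, and with no filter it was 0.0571. Dlst was at 14.7 ± 0.991 and 14.4 ± 1.07 TPM, with a 95% interval of the log2 difference of -0.23 to 0.17. Suclg1, the subunit that both forms of succinyl-CoA ligase share (chr6:73248382-73276911), read 23.7, 21.3 and 22.5 TPM at 0.2 mM and 27.2 to 32.3 with a median of 28.7 TPM at 0.8 mM. It was higher in every library at 0.8 mM (log2 fold change 0.35 ± 0.08, adjusted p = 0.00567). Its partners Sucla2, of the ADP-forming enzyme, and Suclg2, of the GDP-forming enzyme, were at 12.5 ± 2.21 and 2.53 ± 0.915 TPM at 0.2 mM and 14.8 ± 1.14 and 2.31 ± 0.646 TPM at 0.8 mM, with 95% intervals of the log2 difference of -0.02 to 0.49 and -0.53 to 0.36. Fh1, fumarase, was at 23.8 ± 4.90 and 27.6 ± 3.30 TPM, with an interval of -0.08 to 0.51.

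Both malate dehydrogenases rose. Mdh1, the cytosolic enzyme of the malate-aspartate shuttle (chr11:21556787-21572367), read 15.0, 13.2 and 13.6 TPM at 0.2 mM and 24.6 to 29.4 with a median of 27.2 TPM at 0.8 mM. The groups were well apart, and the log2 fold change was 0.92 ± 0.08 (adjusted p = 1.54e-05). Mdh2, the mitochondrial enzyme that closes the cycle (chr5:135778480-135790398), was the more abundant, with 96.2, 88.7 and 105 TPM at 0.2 mM and 116 to 136 with a median of 126 TPM at 0.8 mM. Its groups did not overlap either, and the log2 fold change was 0.38 ± 0.07 (adjusted p = 0.00208).

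**Figure D4:**
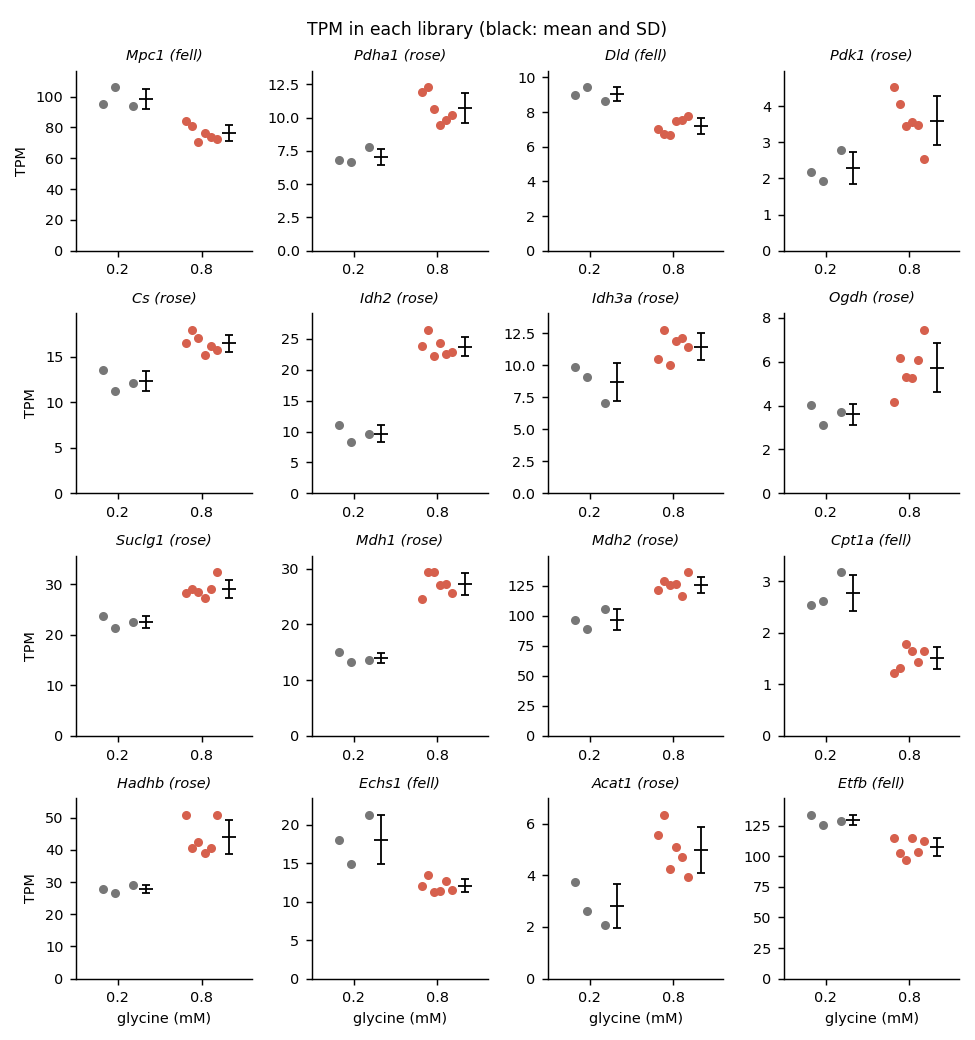
TPM in each library of the genes that rose or fell, 1 panel a gene with its own axis from 0, grey points at 0.2 mM and red points at 0.8 mM glycine, with the mean and SD in black. Only the panel of Pdk1 shows ranges that overlap, 1.92 to 2.78 TPM against 2.54 to 4.53 TPM.

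Ratios of TPM between related enzymes, for pairs chosen after their values were seen, describe how unevenly the cycle genes differed and carry no test. The ratio of Idh2 to Idh3a was 1.12, 0.911 and 1.38 at 0.2 mM and 1.86 to 2.28 at 0.8 mM. Against Idh3b the ratio was 0.336, 0.324 and 0.324 at 0.2 mM and 0.752 to 1.09 at 0.8 mM. The NADP-dependent enzyme was thus below the regulatory subunit in all 3 libraries at 0.2 mM and near it at 0.8 mM. The ratio of Mdh1 to Mdh2 was 0.156, 0.149 and 0.130 at 0.2 mM and 0.189 to 0.235 at 0.8 mM. Mdh2 therefore stayed several times more abundant than Mdh1 in every library.

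**Figure D5:**
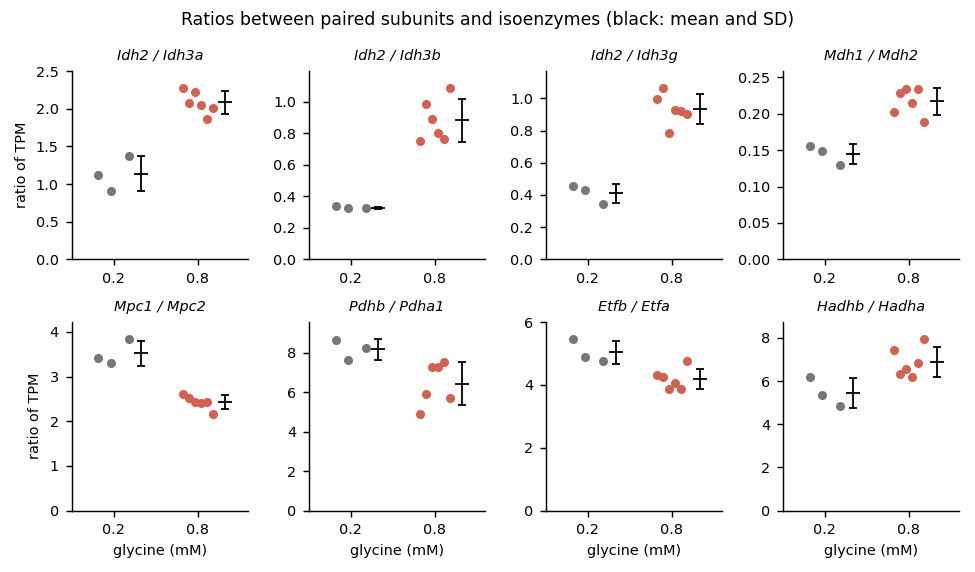
Ratio of TPM between 2 related genes in each library, 1 panel a pair, grey points at 0.2 mM and red points at 0.8 mM glycine, with the mean and SD in black. The groups do not overlap in any panel but that of Hadhb over Hadha, where they run from 4.83 to 6.20 and from 6.19 to 7.95. Further pairs were computed but are not shown. The groups overlapped for Pdhb over Dlat, Suclg2 over Sucla2 and Idh3b over Idh3a, and did not for Cs over Dlst.

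The promoter stretches of 3 of the cycle genes that rose are given for comparison. Idh2 and Mdh2 were taken for their small p, and Ogdh after the motif search, since 3 of its 6 RefSeq windows, the shown one among them, hold the cyclic AMP response element TGACGTCA upstream of the exons, in capitals with the CCAAT and ATTGG letters. They lie at chr7:80115393-80115600 on the minus strand, at chr5:135778399-135778479 on the plus strand and at chr11:6291347-6291596 on the plus strand (RefSeq, GRCm38.p6). The Mdh1 window lies within annotated exons.
Idh2: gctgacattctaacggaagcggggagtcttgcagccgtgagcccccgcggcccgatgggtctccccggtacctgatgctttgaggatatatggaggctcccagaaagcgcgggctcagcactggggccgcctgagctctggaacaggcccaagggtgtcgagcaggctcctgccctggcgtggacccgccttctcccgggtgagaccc
Mdh2: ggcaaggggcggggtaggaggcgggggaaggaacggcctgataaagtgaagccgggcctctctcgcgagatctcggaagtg
Ogdh: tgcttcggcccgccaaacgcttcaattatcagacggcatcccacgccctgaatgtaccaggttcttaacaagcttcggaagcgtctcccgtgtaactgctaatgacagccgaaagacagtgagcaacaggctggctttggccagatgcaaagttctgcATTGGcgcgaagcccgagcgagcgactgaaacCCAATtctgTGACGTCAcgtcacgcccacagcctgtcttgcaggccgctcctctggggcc
The Mdh2 stretch stops short of its own TGACGTCA, which lies nearer the start, and the Idh2 stretch ends inside the CCAAT box of its window.

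In the carnitine shuttle, Cpt1a fell and Cpt2 and Slc25a20 did not pass. Cpt1a, the outer-membrane carnitine palmitoyltransferase and the rate-limiting step of long-chain fatty acid entry (chr19:3322334-3385733), read 2.53, 2.61 and 3.17 TPM at 0.2 mM and 1.23 to 1.79 with a median of 1.54 TPM at 0.8 mM. Every library at 0.8 mM was below those at 0.2 mM, and the log2 fold change was -0.59 ± 0.13 (adjusted p = 0.00637). Cpt1b, the muscle isoform, read 0.174, 0.158 and 1.34 TPM at 0.2 mM and 0.0515 to 1.42 with a median of 0.240 TPM at 0.8 mM, and 1 library of each group was above 1 TPM. Of the summed TPM of Cpt1a, Cpt1b and Cpt1c, Cpt1a made up 46.8, 44.3 and 43.4% at 0.2 mM and 24.0% to 33.0% at 0.8 mM. Slc25a20, the carnitine-acylcarnitine carrier of the inner membrane, read 4.68, 4.76 and 4.92 TPM at 0.2 mM and 2.74 to 4.24 with a median of 3.72 TPM at 0.8 mM. Its groups did not overlap, but the log2 difference of -0.33 (95% interval -0.61 to -0.05) had an adjusted p of 0.0829, and it passed with either rescaling of the libraries. Cpt2, the inner-membrane transferase, was at 9.95 ± 3.02 and 8.83 ± 2.99 TPM, with an interval of -0.75 to 0.41.

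In beta-oxidation, Hadhb and Acat1 rose, Echs1 fell, and 9 genes did not pass. Hadhb, the thiolase subunit of the mitochondrial trifunctional protein (chr5:30155248-30184593), read 28.0, 26.6 and 29.0 TPM at 0.2 mM and 39.0 to 50.9 with a median of 41.5 TPM at 0.8 mM. The groups were separate, and the log2 fold change was 0.64 ± 0.10 (adjusted p = 0.000811). Hadha, the partner subunit with the hydratase and dehydrogenase activities, read 4.51, 4.95 and 6.00 TPM at 0.2 mM and 5.95 to 6.83 with a median of 6.41 TPM at 0.8 mM. The ranges overlapped by a small margin, the log2 difference was 0.27 (95% interval 0.04 to 0.51, adjusted p = 0.0826), and without replicate 3 at 0.2 mM it passed (adjusted p = 0.0404). In TPM, Hadhb was several times more abundant than Hadha in every library, with a ratio of 6.20, 5.37 and 4.83 at 0.2 mM and 6.19 to 7.95 at 0.8 mM. Echs1, the short-chain enoyl-CoA hydratase (chr7:140105710-140116476), read 18, 15.0 and 21.3 TPM at 0.2 mM and 11.3 to 13.5 with a median of 11.8 TPM at 0.8 mM. All libraries at 0.8 mM were below those at 0.2 mM, and the log2 fold change was -0.53 ± 0.11 (adjusted p = 0.00487). Acat1, the mitochondrial acetoacetyl-CoA thiolase of ketone body and isoleucine breakdown (chr9:53580522-53610382), read 3.74, 2.61 and 2.08 TPM at 0.2 mM and 3.93 to 6.35 with a median of 4.90 TPM at 0.8 mM. It was higher in every library at 0.8 mM (log2 fold change 0.66 ± 0.17, adjusted p = 0.0146), and without replicate 2 or replicate 3 at 0.2 mM the adjusted p was 0.0565 or 0.0736.

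The 4 acyl-CoA dehydrogenases, which take the fatty acid chain through the opening oxidation of each round and differ in the chain length they prefer, did not pass. Acadvl, for very long chains, was at 12.5 ± 3.07 and 16.8 ± 2.63 TPM, with a 95% interval of the log2 difference of 0.05 to 0.78 and an adjusted p of 0.092, and it passed without replicate 3 at 0.2 mM (0.0399) or replicate 1 at 0.8 mM (0.0353). Acadl, for long chains, was at 29.6 ± 2.90 and 28.1 ± 2.10 TPM with an interval of -0.27 to 0.12. Acadm, for medium chains, was at 7.15 ± 2.00 and 10.4 ± 2.44 TPM with an interval of 0.04 to 0.94 and an adjusted p of 0.107. Acads, for short chains, was at 4.75 ± 0.533 and 5.60 ± 1.15 TPM with an interval of -0.17 to 0.53. The estimate was thus positive for Acadvl, Acadm and Acads and slightly negative for Acadl. Hadh, the 3-hydroxyacyl-CoA dehydrogenase for shorter chains, was at 7.30 ± 0.553 and 9.15 ± 1.94 TPM, and its interval was -0.08 to 0.63. Acaa2, the matrix thiolase, was at 11.6 ± 1.74 and 10.5 ± 1.32 TPM, and its interval was -0.42 to 0.14. The auxiliary enzymes of unsaturated fatty acids were Decr1, a dienoyl-CoA reductase at 4.95 ± 0.369 and 4.62 ± 1.01 TPM (interval -0.44 to 0.24), and Eci1, an enoyl-CoA isomerase at 13.1 ± 0.604 and 9.88 ± 1.94 TPM (interval -0.73 to -0.06). Eci1 had an adjusted p of 0.0791 and passed, with a lower level at 0.8 mM, without replicate 1 at 0.8 mM (0.0297) and with either rescaling of the libraries.

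Hadha and Hadhb lie head to head on chromosome 5, and the 85 bases between their outermost annotated exons (chr5:30155163-30155247, GRCm38.p6, plus strand as for Hadhb) are shown because both subunits of 1 enzyme start from them. Of these bases 69.4% are G or C, and none of the motifs searched falls within them.
Hadha-Hadhb: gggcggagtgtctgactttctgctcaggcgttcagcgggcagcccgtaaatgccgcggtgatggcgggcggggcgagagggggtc
The stretch upstream of Echs1 (chr7:140116477-140116671, minus strand) was added after the motif search, for the letters TGATGCAA, in capitals, the reverse complement of the ATF4 and C/EBP composite element TTGCATCA.
Echs1: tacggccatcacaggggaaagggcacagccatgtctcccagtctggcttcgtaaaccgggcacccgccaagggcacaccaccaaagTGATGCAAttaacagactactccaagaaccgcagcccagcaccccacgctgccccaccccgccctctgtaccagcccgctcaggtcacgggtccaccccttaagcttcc

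The electron transfer flavoprotein passes electrons from the acyl-CoA dehydrogenases to ubiquinone. Etfb, its beta subunit (chr7:43444083-43457800), fell, with 134, 126 and 129 TPM at 0.2 mM and 97.0 to 115 with a median of 108 TPM at 0.8 mM. The groups did not overlap, and the log2 fold change was -0.27 ± 0.07 (adjusted p = 0.0147), which became 0.0659 without replicate 1 at 0.2 mM and 0.0545 with no trend in the variance. Etfa, the alpha subunit of the same dimer, was at 25.8 ± 1.30 and 25.8 ± 1.82 TPM, with a 95% interval of the log2 difference of -0.18 to 0.18. The ratio of Etfb to Etfa was 5.46, 4.89 and 4.76 at 0.2 mM and 3.87 to 4.75 at 0.8 mM, with a narrow gap between the groups. Etfdh, the ubiquinone oxidoreductase, was at 3.37 ± 1.03 and 4.59 ± 1.71 TPM, with an interval of -0.26 to 0.91.

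Of the 2 regulators, Esrra, the nuclear receptor ERR-alpha that drives many of these genes in muscle, read 0.812, 0.913 and 0.381 TPM at 0.2 mM and 0.962 to 2.13 with a median of 1.19 TPM at 0.8 mM. The groups were close but did not overlap, and the log2 difference of 0.49 (95% interval 0.07 to 0.92) did not pass (adjusted p = 0.0819). Esrra was under 1 TPM in every library at 0.2 mM, so it was tested only through the libraries at 0.8 mM. Its 73 exon bases shared with Trmt112 on the other strand cannot be assigned without strand, and Trmt112 was at 95.8 ± 0.790 and 72.9 ± 3.28 TPM. Ppargc1a, whose product works with ERR-alpha, read 0, 0 and 0.0810 TPM at 0.2 mM and 0 to 0.113 TPM at 0.8 mM, under the level needed for the test.

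Other genes of the same pathways were counted over 95 further genes on lists by role, of which 72 were tested. Of these, 17 rose, 6 fell and 49 did not pass, with a median log2 fold change of 0.07, and 31.9% passed against 26.6% over all genes. Upward the share was 23.6% against 16.7%, and downward 8.33% against 9.81%. The remaining TCA cycle list, with succinate dehydrogenase, had 5 rises and no fall among 11 tested (45.5% up, against 16.7% over all genes). Idh1, the cytosolic NADP-dependent isocitrate dehydrogenase, rose from 2.13 ± 0.622 to 6.65 ± 0.898 TPM (log2 fold change 1.30 ± 0.15, adjusted p = 9.08e-05), so both NADP-dependent enzymes rose. Of the succinate dehydrogenase subunits, Sdhb, Sdhc and Sdhd rose, by 0.29, 0.70 and 0.55 on the log2 scale (adjusted p = 0.00634, 0.00204 and 0.00168), and the flavoprotein subunit Sdha was at 33.6 ± 1.11 and 30.4 ± 5.56 TPM (adjusted p = 0.456). The list of PDH partners, lipoate synthesis and PDH phosphatases had 2 rises and no fall among 7 tested (28.6% up, against 16.7%). These were Ndufab1, the mitochondrial acyl carrier protein, from 57.8 ± 5.55 to 75.5 ± 2.84 TPM (adjusted p = 0.002), and Lipt2, which moves octanoate in lipoate synthesis, from 0.575 ± 0.106 to 1.44 ± 0.386 TPM (adjusted p = 0.02, and 0.0741 or 0.0650 without replicate 1 or replicate 3 at 0.2 mM). Lipt2 was under 1 TPM in every library at 0.2 mM, so it was tested only through the libraries at 0.8 mM. Gcsh, the lipoyl carrier of glycine cleavage, and Pdp1, a PDH phosphatase, had log2 differences of 0.27 and -0.26 (adjusted p = 0.195 and 0.43).

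Among 14 tested genes of anaplerosis, citrate export and the metabolite shuttles, 6 rose and 1 fell. These are 42.9% and 7.14%, against 16.7% and 9.81% over all genes tested. Ldha, lactate dehydrogenase A, which competes with the carrier for pyruvate, rose from 964 ± 125 to 1705 ± 114 TPM (log2 fold change 0.83 ± 0.08, adjusted p = 2.05e-05). Slc25a1, the citrate carrier, and Acly, which cleaves citrate in the cytosol, rose by 0.61 and 0.64 on the log2 scale (adjusted p = 0.00646 and 0.0116). The dicarboxylate carrier Slc25a10, the oxoglutarate carrier Slc25a11 and the aspartate-glutamate carrier Slc25a12 rose by 0.60, 0.37 and 0.76 (adjusted p = 0.00963, 0.0401 and 0.0316), and without replicate 1 at 0.2 mM the value for Slc25a10 was 0.0536. The ranges of Slc25a12 overlapped between the groups. With no filter the calls of Slc25a11 and Slc25a12 were lost (adjusted p = 0.0804 and 0.0815). That of Slc25a11 was lost with either rescaling, without ribosomal RNA genes and with no trend in the variance, with adjusted p from 0.0554 to 0.0832. Slc25a11, Slc25a12 and Acly were named after their values were seen. Without replicate 2 at 0.2 mM these 3 did not pass (adjusted p = 0.181, 0.0755 and 0.0639), which left 3 rises in place of 6. The calls of Slc25a11 and Slc25a12 were also lost without replicate 3 at 0.2 mM or replicate 1 or 6 at 0.8 mM, that of Slc25a11 without replicate 2 or 3 at 0.8 mM, and that of Slc25a12 without replicate 4 at 0.8 mM, with adjusted p from 0.0538 to 0.130. The gene that fell was Pck2, mitochondrial phosphoenolpyruvate carboxykinase, from 26.7 ± 2.64 to 14.4 ± 2.51 TPM (adjusted p = 0.000782).

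Of 22 further fatty acid oxidation genes tested, 1 rose and 4 fell. These are 4.55% and 18.2%, against 16.7% and 9.81% over all genes tested. Fabp3, the fatty acid binding protein of heart and muscle, fell from 62.2 ± 5.64 to 15.6 ± 2.41 TPM (log2 fold change -1.94 ± 0.12, adjusted p = 8.3e-07), and Acot2, a mitochondrial acyl-CoA thioesterase, fell from 6.35 ± 0.943 to 1.08 ± 0.399 TPM (log2 fold change -1.83 ± 0.17, adjusted p = 1.75e-05). Acot13, another thioesterase, and Acsl1, which activates long-chain fatty acids, fell, with log2 fold changes of -0.60 and -0.80 (adjusted p = 0.000259 and 0.0077). The gene that rose was Crat, carnitine acetyltransferase, from 2.44 ± 0.810 to 5.72 ± 1.61 TPM (adjusted p = 0.00926, and 0.0505 without replicate 3 at 0.2 mM), and without replicate 1 at 0.2 mM 2 genes of this list rose. On the list named for ketone body use, 2 of 4 tested genes rose (50%, against 16.7% over all genes tested). Oxct1, the transferase that activates acetoacetate, rose from 2.80 ± 0.394 to 5.89 ± 1.15 TPM (adjusted p = 0.00197). Acat2 rose from 2.86 ± 0.299 to 7.40 ± 1.02 TPM (adjusted p = 7.23e-05), but it is a cytosolic thiolase, and the mitochondrial thiolase of ketone body breakdown is Acat1. Bdh1, a hydroxybutyrate dehydrogenase, did not pass (adjusted p = 0.763). Of 14 tested regulators, 1 rose and 1 fell, 7.14% each, against 16.7% and 9.81% over all genes tested. Mef2d, a muscle transcription factor, rose from 4.27 ± 0.385 to 6.91 ± 0.535 TPM (adjusted p = 0.00166). Gabpb1, a subunit of the factor NRF2, fell from 3.59 ± 0.997 to 2.08 ± 0.342 TPM (adjusted p = 0.0307) with overlapping ranges. The Gabpb1 call was lost without replicate 1 or 2 at 0.2 mM or replicate 3 or 6 at 0.8 mM (adjusted p from 0.0533 to 0.135). Tfam, the mitochondrial transcription factor, was lower at 0.8 mM and Mef2a higher, and they did not pass (adjusted p = 0.0511 and 0.0525). Both passed without replicate 3 at 0.2 mM, at 0.00191 and 0.0208, and with library weights, at 0.0306 and 0.0400. Tfam also passed with either rescaling of the libraries (0.0350 and 0.0336) and without ribosomal RNA genes (0.0493). Mef2a also passed without replicate 3 at 0.8 mM (0.0331) and with a mean of at least 5 TPM (0.0361).

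RefSeq windows of 300 bases around the start, on GRCm38.p6, were found for 40 of the 45 genes, among them 9 of the 11 that rose and all 5 that fell. Each motif was searched on both strands, and its share is given over the 27025 genes with a window. The ERR-alpha element TCAAGGTCA was in the window of none of the 40 and in 0.466% of all genes. The ETS-type site CCGGAAGT was in those of Dlst, Cpt2 and Slc25a20 and in 4.31%. The cyclic AMP response element TGACGTCA was in those of Ogdh and Mdh2, which both rose, and in 2.03%. The composite element TTGCATCA was in those of Echs1 and Esrra and in 1.03%. The box CCAAT was in those of 20 of the 40, including 4 of the 9 that rose and 4 of the 5 that fell, and in 41.1% of all genes. No motif contains another, and a match or its absence describes only these windows.

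Use of strand in the counting is not given, so reads from exons shared with a gene on the other strand cannot be told apart. Among the genes that rose or fell, Mpc1, Pdha1, Mdh1 and Echs1 share exon bases with such a gene, and the partners were low, at most 3.06 TPM in any library for Paox, the partner of Echs1, and at most 1.61 TPM for the others. Idh3b shares 5 exon bases with Nop56. Of the 10 genes with a near-identical sequence of at least 90% identity to a transcript of the 45, none was listed above 0.481 TPM in any library, including the processed pseudogenes of Hadhb and Pdhb, which were listed at 0.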

How the data were processed

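RNA of 9 libraries of primary mdx myoblasts was extracted with Trizol and sequenced after a TruSeq RNA kit, per the labels' protocols. HISAT2 2.0.5 (a read aligner), StringTie 1.3.3 (a transcript quantifier) and DESeq2 are listed with the mm10 build, per the submitters' processing notes, without their order, settings, annotation or use of strand. Values were deposited as TPM in 1 table, a unit that keeps no read depth, so precision rests on the spread between libraries.

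The 45 genes, the lists of other pathway genes and the marker lists were chosen with earlier results of these data known, and no list is independent evidence. From the TPM, limma 3.58.1 in R 4.3.3 (lmFit, eBayes with a trend, two-sided, Benjamini-Hochberg over all 10049 genes) was run on log2(TPM + 1), with genes kept at 1 TPM or more in at least 3 libraries, and the script was tested on simulated data. Library measures had exact permutation tests over the 84 ways of dividing 9 libraries into 3 and 6. Gene positions and exon overlaps came from GENCODE M21 on GRCm38, where 53620 of 53715 IDs matched without their version, and promoter windows came from RefSeq on GRCm38.p6. All 45 genes were named, in full where they passed, with up to 4 genes of smallest p from each other list and the other genes of those lists that passed, apart from a few that are counted but not reported here by name. Promoters were planned for the 6 genes of smallest p, and those of Ogdh and Echs1 were added after their motif matches were seen. Alternatives changed the pseudocount, filter, scaling, excluded genes, variance model and threshold, added a block by library number, or left out each library in turn.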

Additional observations from a re-analysis of the deposited data

Results flagged for a closer look

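Among the 72 genes described by group, 3 had 1 of the 6 libraries at 0.8 mM far from the other 5, where chance alone flags about 1 in 20 groups of this size. Suclg1 read 32.3 TPM in replicate 6, against 27.2 to 29.0 TPM in the others. Cpt1b read 1.42 TPM in replicate 6, against 0.0515 to 0.304 TPM. Acot2 read 1.86 TPM in replicate 1, against 0.729 to 1.05 TPM. Suclg1 and Acot2 passed with the same direction when that library was left out, and Cpt1b was under the level needed for the test.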

How the results depend on the processing

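Read depth is unknown, each concentration is 1 series of libraries, and with no filter Pcx, Pdk4, Cpt1b and Ppargc1a did not pass (limma adjusted p = 0.736, 0.413, 0.822 and 0.763). No gene of the 45 changed direction among the calls under any alternative. Of the 41 tested, 23 kept the same call in every alternative that included them (22 or 23 each), 13 of the 16 that passed lost the call in at least 1, and 5 that had not passed did so in at least 1. Idh2, Mdh1 and Hadhb passed in all of them. Of the 16, 10 passed without any 1 library.

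Leaving out 1 library at a time gave 1306 to 1616 rises and 753 to 961 falls over all genes, against 1683 and 986 with all libraries, and 7 to 11 rises and 3 to 5 falls of the 45. It gave 1 to 2 rises in the PDH partner and lipoate list, 3 to 6 in the shuttle list, 0 to 2 in the further fatty acid oxidation list, and 1 to 3 rises and 0 to 2 falls among further regulators.

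A 1.5-fold minimum left 1121 rises and 515 falls over all genes, 4 rises and 1 fall of the 45, 1 rise in the PDH partner and lipoate list, 3 in the further TCA list and 0 falls among regulators. A mean of at least 5 TPM left 1 rise in the PDH partner and lipoate list, 3 in the shuttle list, 0 in the further fatty acid oxidation list, 1 in the ketone list, and 2 rises and 0 falls among regulators. Lipt2, Slc25a10, Slc25a12, Acly, Crat, Oxct1 and Gabpb1 lay under that mean, so they were not tested there and did not lose a call. Regulators had 0 falls with no filter, 3 with median-ratio scaling, 3 with quantile normalization, 3 without ribosomal RNA genes, and 2 rises and 2 falls with library weights, and quantile normalization left 1 rise in the PDH partner and lipoate list. The cause of the differences with no filter, other scalings, excluded genes or library weights was not tested.

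Libraries of both concentrations carry the numbers 1 to 3, and the labels do not say whether same-numbered libraries are related. Deviations of same-numbered libraries correlated at 0.0229, 0.0300 and 0.0812, and those of differently numbered libraries at -0.104 to 0.0799. Correlations this low over so few libraries cannot settle whether they are paired. With the number as a replicate block over these 6 libraries there were 1117 rises and 596 falls over all genes, 6 rises and 0 falls of the 45, 1 rise in the PDH partner and lipoate list, 2 in the shuttle list, 1 in the ketone list and 0 falls among regulators. With no replicate block over the same 6 libraries the counts were 1312 and 736 over all genes, 10 and 4 of the 45, 1 in the PDH partner and lipoate list, 2 in the shuttle list and 0 falls among regulators. Replicate 2 at 0.2 mM correlated better with replicate 1 at 0.8 mM (0.0799) than with its own number.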

Other observations

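Summed over each role, TPM of the 45 genes gave the following levels, which carry no test and are led by the most abundant genes of each role. The 13 TCA cycle genes summed to 249.6 to 294 TPM at 0.2 mM and 342 to 357 TPM at 0.8 mM. The 12 beta-oxidation genes summed to 138 to 149 TPM and 158 to 166 TPM. The 3 electron transfer flavoprotein genes summed to 155 to 163 TPM and 124 to 148 TPM. Pyruvate entry and the PDH complex summed to 204 to 212 TPM and 189 to 209 TPM, with overlap, and the carnitine shuttle to 14.2 to 20.0 TPM and 10.9 to 18.5 TPM, also with overlap. The PDH kinases summed to 7.03 to 8.65 TPM and 7.89 to 10.1 TPM, with overlap, and the 2 regulators to 0.462 to 0.913 TPM and 1.02 to 2.24 TPM, nearly all of it Esrra. The sums of the groups thus did not overlap for the TCA cycle and beta-oxidation, higher at 0.8 mM, and for electron transfer, lower. In electron transfer, Etfb was at 129.6 and 107.7 TPM and Etfa at 25.8 TPM in both groups. The regulator sum was also higher without overlap, but it rests on Esrra. Esrra met the level for the test only through the libraries at 0.8 mM and did not pass. Among single genes tested, 28.2% did not overlap. The beta-oxidation means were 145 and 163 TPM, and those of Hadhb alone 27.8 and 44.0 TPM. The further fatty acid oxidation genes summed to 266 to 295 TPM at 0.2 mM and 189 to 196 TPM at 0.8 mM, a sum in which Fabp3 and Acot13 are among the largest terms.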
